A study of Mus musculus with 4 samples.

Results

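A group of 10 genes that mark the work of Sertoli cells were followed in RNA precipitated with a DDX20 antibody from mouse testis cells: the hormone genes Amh, Inha, Inhba and Inhbb, the hormone receptor gene Fshr, the secreted protein genes Clu, Trf and Defb19, the tight junction gene Cldn11 and the homeobox gene Rhox5. They were taken by symbol from a table of 55357 gene identifiers, and 10 of 10 were found and passed the filter on low counts. The groups were 2 libraries of RNA immunoprecipitated with the DDX20 antibody (RIP) and 2 input libraries with no antibody, for which 10% of the total RNA was taken. All 4 libraries were made from cells of the testis of C57BL/6 mice at 7 days of age, with no transgene or other treatment named, and the cells were exposed to ultraviolet light (200 mJ per square cm at 254 nm) before lysis. The catalogue entries for the antibody differ by 1 character between the RIP libraries. A control precipitation was not used here. A higher value therefore says that a message had a greater share in RIP than in input, and does not show binding by DDX20.

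Sertoli cells are the somatic cells of the testis tubule that surround and feed germ cells. Before puberty they divide under follicle-stimulating hormone and secrete anti-Müllerian hormone, which makes the Müllerian ducts regress, and inhibin B, which restrains the release of follicle-stimulating hormone by the pituitary. Inhibins join an alpha subunit (Inha) to a beta subunit (Inhba or Inhbb), whereas activins join beta subunits only and signal in the opposite sense. DDX20 (Gemin3) belongs to the DEAD-box helicases and to the SMN complex, which assembles small nuclear ribonucleoproteins.

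Sequences of 3 messages are given as read from GENCODE M21 transcripts on GRCm38. Whether these sequences bear on the fold changes was not tested. Inhba and Inhbb encode related subunits and moved in opposite directions under the library scaling used here. Their last 120 coding nt, stop codon included, are identical at 89 positions (74.2%), which are in capitals. The stretch of Inhba is chr13:16027010-16027129 on the plus strand and that of Inhbb is chr1:119417322-119417441 on the minus strand. Defb19 is the shortest of the 10 messages, and its coding sequence of 252 nt (chr2:152576163-152580247, minus strand, spliced from 2 exons) is given whole, with the start and stop codons in capitals.
Inhba: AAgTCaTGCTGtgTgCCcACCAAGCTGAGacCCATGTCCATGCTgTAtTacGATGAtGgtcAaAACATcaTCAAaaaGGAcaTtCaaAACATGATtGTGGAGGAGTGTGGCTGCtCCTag
Inhbb: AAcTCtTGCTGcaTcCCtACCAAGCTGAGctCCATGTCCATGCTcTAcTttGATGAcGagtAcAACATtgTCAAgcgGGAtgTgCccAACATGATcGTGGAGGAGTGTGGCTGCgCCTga
Defb19: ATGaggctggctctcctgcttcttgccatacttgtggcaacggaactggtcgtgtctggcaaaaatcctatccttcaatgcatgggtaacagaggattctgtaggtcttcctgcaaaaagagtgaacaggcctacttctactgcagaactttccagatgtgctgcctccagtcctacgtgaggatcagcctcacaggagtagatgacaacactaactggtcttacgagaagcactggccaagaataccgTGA
No stretch of 100 nt of the 9 messages other than Trf occurs in a transcript of another gene in that annotation, so reads of Inhba and Inhbb can be told apart over such a length.

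Most of the Sertoli cell products were under-represented in the precipitate. By the quasi-likelihood test of edgeR, adjusted over 17422 genes (Benjamini-Hochberg) with a threshold of 0.05, 8 of the 10 genes fell and 2 rose, and 7 fell by at least 2-fold. The largest adjusted p among the 10 was 0.000611, for Inhbb. With these libraries 77.3% of all genes were called, 38.7% higher and 38.6% lower in RIP, and 23.5% were called and at least 2-fold lower. RIP and input values did not overlap for 10 of the 10 genes, nor for 88.0% of all genes tested. The median log2 fold change was -1.20 over the 10 genes and -0.053 over all genes tested. The TMM-scaled levels of the 10 genes summed to 2225 and 2216 CPM in RIP, against 3778 and 3747 CPM in input. Clu alone made up 58.6% and 58.4% of the sum in RIP and 55.1% and 54.9% in input. As a share of all counts in a library, which amounts to scaling by total counts, the 10 genes held 0.197 ± 0.00136% in RIP and 0.424 ± 0.00191% in input (mean ± SD, n = 2 libraries each). That scaling moved the median of all genes to -0.40, with 28.7% of genes called higher and 50.8% lower, and left 9 of the 10 lower and 1 higher. With an offset for exonic length 6 of the 10 were called lower and 3 higher, and 2 (Inhba and Cldn11) were at least 2-fold lower, against 13.1% of the genes of that fit. The labels do not say that the 2 libraries of a group were prepared from separate cells, and the p-values rest on a spread that may be technical.

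**Figure D1:**
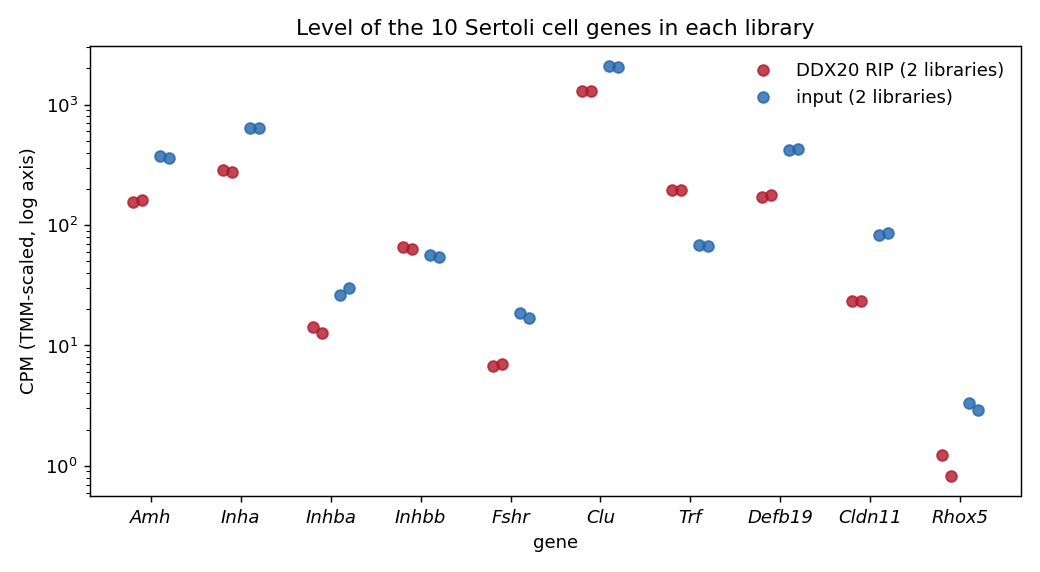
CPM (counts scaled to library size by the trimmed mean of M values, TMM; log axis) of the 10 genes in each of the 2 DDX20 RIP and 2 input libraries, 1 point per library. The RIP points lie below the input points for 8 genes and above them for Inhbb and Trf.

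The hormone Amh and the inhibin alpha subunit Inha were the abundant hormone messages, and both were called lower in RIP. Amh (ENSMUSG00000035262.6) had 156 and 162 CPM in the RIP libraries, against 376 and 364 CPM in the input libraries. Both RIP values lay below both input values, and the log2 fold change was -1.22 ± 0.0315 (SE; edgeR quasi-likelihood adjusted p = 2.39e-27). Inha (ENSMUSG00000032968.5) had 286 and 278 CPM in RIP, against 645 and 644 CPM in input, with no overlap. Its log2 fold change of -1.19 ± 0.0267 (adjusted p = 3.28e-29 in the same test) was close to that of Amh. With the exonic length offset both were still called lower but by less, at -0.42 for Amh and -0.30 for Inha. By level, Inha ranked 777 and 796 among the genes tested in the RIP libraries and 131 and 133 in the input libraries. Amh lies on chromosome 10 from 80805243 to 80807648 and Inha on chromosome 1 from 75507077 to 75510366, both on the plus strand (GRCm38).

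The beta subunits parted. Inhba (ENSMUSG00000041324.15), the subunit of activin A, had 14.3 and 12.8 CPM in RIP, against 26.1 and 29.8 CPM in input. Its RIP libraries were the lower ones, with a log2 fold change of -1.04 ± 0.0922 (edgeR quasi-likelihood adjusted p = 2.73e-12). Inhbb (ENSMUSG00000037035.6), the subunit of inhibin B and activin B, had 65.6 and 63.8 CPM in RIP, against 56.9 and 54.8 CPM in input. The values did not overlap, and the log2 fold change was 0.21 ± 0.0534 (adjusted p = 0.000611 in that test). This small rise turned to -0.14 with total counts and to -0.13 with upper-quartile scaling, both past the threshold, so the direction of Inhbb depends on how the libraries are scaled. Inhba lies on chromosome 13 from 16011851 to 16031621 and overlaps 2 genes of the other strand, with 0 nt of exon shared. Inhbb lies on chromosome 1 from 119415465 to 119422248.

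Ratios of counts within a library, which no scaling between libraries can change, set the subunits side by side. They take no account of message length. With the exonic length offset Inha stood at -0.30, Inhba at -1.40 and Inhbb at 0.18 in log2 fold change. The Inha to Inhbb ratio was 4.36 and 4.35 in the RIP libraries, against 11.3 and 11.8 in the input libraries. RIP thus held the smaller ratio in both libraries, with a difference in log2 ratio of -1.41 ± 0.0257 (SE). The Inhba to Inhbb ratio was 0.218 and 0.201 in RIP, against 0.459 and 0.543 in input, a difference of -1.26 ± 0.135. By contrast the Inha to Inhba ratio, at 20.03 and 21.7 in RIP against 24.7 and 21.6 in input, overlapped between groups (-0.15 ± 0.112). The Amh to Inha ratio also overlapped, at 0.547 and 0.584 in RIP against 0.583 and 0.565 in input (-0.02 ± 0.0529 on the log2 scale). With 2 libraries against 2, a two-sided exact permutation test cannot go below p = 0.333. That value was reached for the pairs Inha to Inhbb, Inhba to Inhbb and Trf to Clu of the 5 pairs compared (0.556 after Benjamini-Hochberg adjustment), and the overlapping pairs gave exact p of 0.667 and 1.0 (0.833 and 1.0 adjusted).

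**Figure D2:**
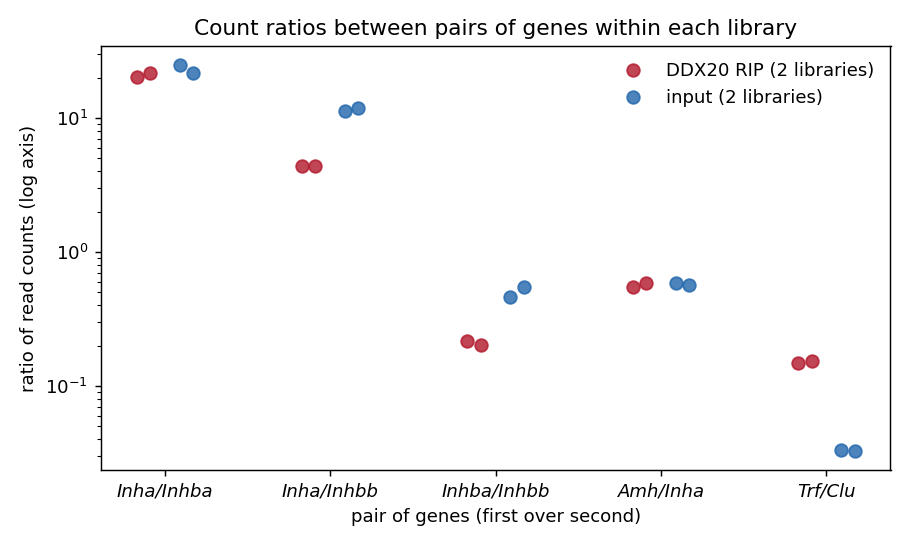
Ratio of raw read counts between pairs of genes (log axis) within each of the 2 DDX20 RIP and 2 input libraries, 1 point per library. The ratios over Inhbb were lower in both RIP libraries (Inha over Inhbb 4.36 and 4.35 in RIP against 11.3 and 11.8 in input), Trf over Clu was higher, and the other pairs overlapped.

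The receptor of the pituitary hormone was rarer and fell as well. Fshr (ENSMUSG00000032937.6), through which follicle-stimulating hormone drives Sertoli cells, had 6.80 and 7.04 CPM in RIP, against 18.7 and 16.8 CPM in input. Both RIP libraries were lower, and the log2 fold change was -1.36 ± 0.117 (edgeR quasi-likelihood adjusted p = 1.37e-12). Its gene spans chromosome 17 from 88984952 to 89200675, with a spliced message of 2360 nt in 10 exons.

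Among secreted proteins, clusterin fell and transferrin rose. Clu (ENSMUSG00000022037.16), an extracellular chaperone and a major product of Sertoli cells, had 1304 and 1294 CPM in RIP, against 2081 and 2058 CPM in input. It was the most abundant of the 10 genes in every library, ranking 59 and 53 among all genes tested in RIP and 12 and 13 in input, and its log2 fold change was -0.67 ± 0.0212 (edgeR quasi-likelihood adjusted p = 8.05e-25). Trf (ENSMUSG00000032554.16), the iron carrier that Sertoli cells pass to germ cells, had 195 and 197 CPM in RIP, against 69.0 and 67.3 CPM in input. It moved against the other secreted products, with no overlap and a log2 fold change of 1.52 ± 0.0394, or 2.88-fold (adjusted p = 2.22e-27 in that test), above 93.8% of all genes tested. The Trf to Clu count ratio was 0.149 and 0.152 in RIP, against 0.0331 and 0.0327 in input, a 4.58-fold higher ratio in RIP. The annotation also lists Gm20425 on the same strand, which shares 2108 of the 3320 exonic nt of Trf. Its counts were not used here, and how reads of the shared exons were assigned is not given in the sources used here, so the level of Trf is less certain than that of the other genes.

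Defb19 (ENSMUSG00000050645.4), a beta-defensin made by Sertoli cells, had 172 and 177 CPM in RIP, against 419 and 425 CPM in input. Both RIP libraries were lower, with a log2 fold change of -1.27 ± 0.0297 (edgeR quasi-likelihood adjusted p = 1.17e-28). With an offset for exonic length it stood at 0.52, so its direction depended on how message length was treated.

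Cldn11, the claudin of the tight junctions that Sertoli cells form with each other, had the lowest log2 fold change of the 10 with TMM scaling. Cldn11 (ENSMUSG00000037625.8) had 23.2 and 23.4 CPM in RIP, against 82.7 and 85.6 CPM in input. The groups lay far apart beside their spread, with a log2 fold change of -1.85 ± 0.0600, or 3.61-fold lower in RIP (edgeR quasi-likelihood adjusted p = 1.72e-24), and 9.21% of all genes tested had a lower value. Other genes stood lower than Cldn11 with the coding length offset (Fshr at -1.91, Cldn11 at -1.22), with the exonic length offset (Inhba at -1.40, Cldn11 at -1.15) and without RIP replicate 1 (Rhox5 at -1.87, Cldn11 at -1.81). Rhox5 (ENSMUSG00000095180.11), an X-linked homeobox gene induced by androgen in Sertoli cells, was the rarest. Its raw counts were 42 and 28 in RIP, against 82 and 70 in input, or 1.24 and 0.828 CPM against 3.32 and 2.90 CPM. The RIP values were the lower ones, and the log2 fold change of -1.58 had the widest error of the 10, at ± 0.288 (adjusted p = 8.72e-06 in the edgeR test). Its call was lost with the exonic length offset, at -0.14 (adjusted p = 0.69 in edgeR). Cldn11 lies on chromosome 3 from 31149920 to 31164324 and Rhox5 on chromosome X from 37804842 to 37808876.

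Set per length of the message, Clu and Defb19 led in both groups. CPM per kb of transcript was 718 ± 3.93 for Clu and 443 ± 8.67 for Defb19 in RIP (SD, n = 2), against 1143 ± 9.15 and 1071 ± 11.3 in input. Inha (191 in RIP, 437 in input) and Amh (95.4 in RIP, 221.5 in input) followed in both groups. Trf at 76.2 CPM per kb in RIP and 26.5 in input came next in RIP, where it stood above Cldn11, at 12.5 in RIP and 45.0 in input. Inhbb had 15.2 CPM per kb in RIP and 13.1 in input, and Fshr 2.93 in RIP and 7.54 in input. At the low end, Inhba (2.12 ± 0.163 in RIP, 4.37 ± 0.406 in input) and Rhox5 (1.64 ± 0.462 in RIP, 4.92 ± 0.475 in input) differed by less than the sum of their SDs in each group. In libraries of mixed cells such levels do not tell fewer cells of a type from less RNA per cell.

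Length moved with the fold changes across the whole table, and its part in the values of these genes was not tested. Over 14686 genes with a coding sequence, Spearman's rho between coding length and log2 fold change was 0.637. The median log2 fold change was -1.23 for coding lengths under 500 nt, -0.58 from 500 to 1000 nt and 0.16 from 1000 to 2000 nt. It was 0.88 from 2000 to 4000 nt and 1.47 from 4000 nt upward. Genes share libraries and are not independent, so this describes the table. Among the 10, coding length ran from 249 nt in Defb19, stop codon left out, to 2091 nt in Trf, and rho was 0.53. Trf and Fshr have nearly the same coding length, 2091 and 2076 nt, and stood at 1.52 and -1.36. Inhba has the longest message of the 10, at 6390 nt, of which 4495 nt follow the coding sequence, and Inhbb follows at 4255 nt. GC content of the message ran from 41.4% in Inhba to 65.4% in Amh, with a rho of 0.25 to the fold change over the 10 genes.

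**Figure D3:**
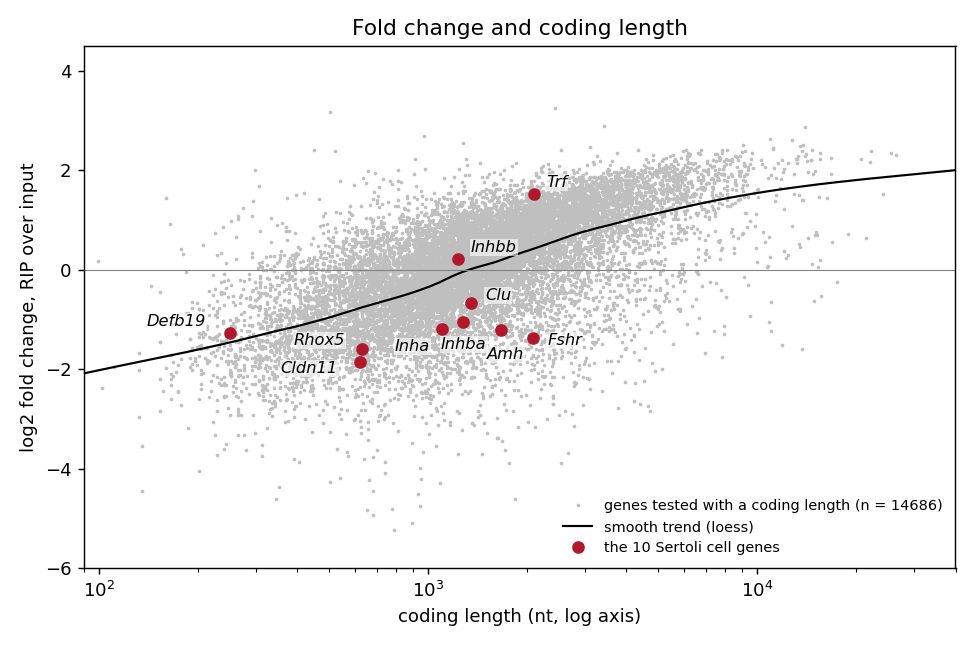
Log2 fold change (RIP over input) against coding length (nt, log axis) for 14686 genes tested, with the smooth trend as a line and the 10 Sertoli cell genes in red. Trf, Inhbb and Defb19 lie above the trend and the other 7 below it, with Fshr farthest from the line.

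Fits with an offset for that trend gave other values for several genes. With an offset for coding length, Amh stood at -1.55, Inha at -1.10, Inhba at -1.14, Fshr at -1.91, Clu at -0.82, Cldn11 at -1.22 and Rhox5 at -0.97, and these 7 were called lower, against 35.5% of the 14686 genes of that fit. Trf (0.96) and Inhbb (0.16) were called higher, against 37.8%, and Defb19 stood at 0.054 and was not called. With an offset for the exonic length of the gene, Amh fell by 0.42, Inha by 0.30, Clu by 0.50, Fshr by 0.87, Cldn11 by 1.15 and Inhba by 1.40. Defb19 was called higher in that fit, at 0.52, and Rhox5, at -0.14, lost its call. Trf stood at 1.72 and Inhbb at 0.18, and 40.4% of the genes in that fit were called higher and 29.8% lower.

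**Figure D4:**
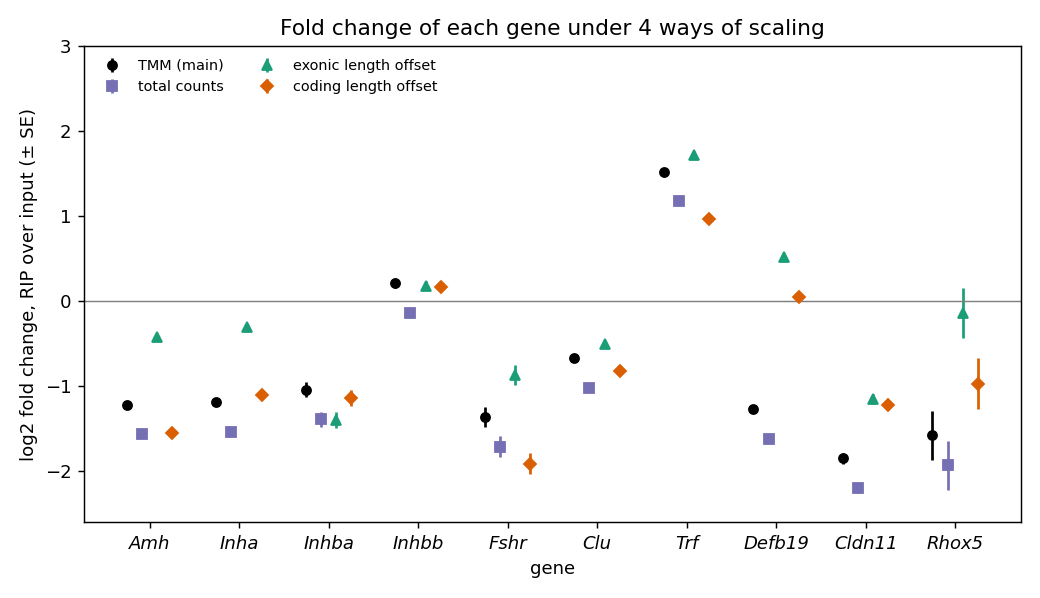
Log2 fold change (RIP over input, ± SE) of the 10 genes with TMM scaling, with total counts, and with offsets for exonic and for coding length. The 4 values of Trf lie above 0 and those of Amh, Inha, Inhba, Fshr, Clu and Cldn11 below 0, whereas Inhbb and Defb19 have values on both sides.

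Most other genes used by Sertoli cells fell as well. Of 38 listed, which include some that other cells also use, 35 were tested, 24 fell (68.6%, against 38.6% of all genes) and 9 rose (25.7%, against 38.7%), and the median was -0.84 on the log2 scale. Among the most abundant of those that fell were Cst12, a cystatin (-1.94 ± 0.0290), Amhr2, the receptor of anti-Müllerian hormone (-0.54 ± 0.0265), and Ctsl, a cathepsin (-0.30 ± 0.0235). Amhr2 had 337.5 ± 3.28 CPM in RIP and 490 ± 0.00226 CPM in input, and stood at 0.10 with the offset for exonic length. The most abundant of those that rose were Sparc, a matrix glycoprotein (0.11), Ldha, a lactate dehydrogenase subunit (0.26), and Krt18, a keratin of immature Sertoli cells (0.28). With total counts these 3 turned to -0.24, -0.086 and -0.066. In that fit 5 of the 35 genes rose and 29 fell, against 28.7% and 50.8% of all genes. By distance between centred log2 CPM over the 4 libraries, the gene of this list most like Trf was Cdh2, which encodes N-cadherin (log2 fold change 1.16, distance 0.363, among 32 candidates). Nearest to Inhbb was Ldha (distance 0.0609), to Cldn11 Gstm6 (0.0825), to Clu Serpina5 (0.0468) and to Amh Dhh (0.194). Such distances rest mostly on the fold change itself, so they show no separate likeness.

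Among genes that bind, receive and carry the hormone signals more rose than fell with TMM scaling. Of 31 genes of activin, AMH and FSH signalling 28 were tested, 16 rose (57.1%, against 38.7% of all genes) and 5 fell (17.9%, against 38.6%), at a median of 0.41 on the log2 scale and a median coding length of 1398 nt, against 1252 nt in the 10 Sertoli cell genes. The activin receptor gene Acvr2a had 22.0 ± 0.357 CPM in RIP and 15.1 ± 2.17 CPM in input (log2 fold change 0.55 ± 0.0964, edgeR adjusted p = 5.10e-06). With total counts it lost its call (0.20). Tgfbr3, which encodes betaglycan, the co-receptor that binds inhibin, had 141 ± 10.1 CPM in RIP and 61.8 ± 0.870 CPM in input (1.19 ± 0.0470). Smad3, a transducer of activin signals, rose by 1.16 ± 0.0457, Prkar1a, a regulatory subunit of the cyclic AMP-dependent kinase, by 0.65 ± 0.0259, and Fstl1 by 0.26 ± 0.0281 (-0.091 with total counts). Fst, which encodes the activin-binding protein follistatin, had 145 and 134 counts in RIP, against 48 and 68 in input, a rise of 0.79 ± 0.220, and lost its call with total counts (0.45) and without input replicate 1 (0.57). Fstl3, another activin-binding protein gene, fell by 1.54 ± 0.134. The cyclic AMP-responsive factor gene Crem had 69 and 136 counts in RIP and 109 and 132 in input, and its call (-0.70 ± 0.232) was lost without RIP replicate 1 (-0.26) and without input replicate 1 or 2 (-0.83 and -0.54), with DESeq2 (-0.64) and with the coding length offset (-0.21). With total counts 11 of the 28 genes rose and 11 fell, where 28.7% of all genes were called higher and 50.8% lower.

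Tight junction genes were called at shares near those of all genes with TMM scaling. Of 22 besides Cldn11, 20 were tested, 9 rose (45.0%, against 38.7%) and 8 fell (40.0%, against 38.6%), with a median of 0.20. With the exonic length offset 10 of the 20 rose and 4 fell, against 40.4% and 29.8% of the genes in that fit. With the coding length offset 9 rose and 5 fell, against 37.8% and 35.5%. The scaffold gene Tjp1 rose by 1.93 ± 0.0282 on the log2 scale and Cxadr, which encodes an adhesion receptor, by 0.90 ± 0.0262. Tjp1, with a coding length of 5235 nt, had 757 ± 12.35 CPM in RIP and 198 ± 5.34 CPM in input. The adhesion molecule genes Jam2 (-1.22 ± 0.0565), Jam3 (-0.90 ± 0.101) and F11r (-0.25 ± 0.0361) fell, although F11r turned to 0.14 and 0.069 with the exonic and coding length offsets. Of 16 genes that handle iron or take up clusterin 9 rose (56.2%, against 38.7% of all genes) and 5 fell (31.2%, against 38.6%), with a median of 0.68 and a median coding length of 2082 nt. Tfrc, the transferrin receptor, had 322 ± 3.26 CPM in RIP and 144 ± 8.42 CPM in input (1.17 ± 0.0347). The endocytic receptor genes Lrp2 (2.87 ± 0.0815) and Lrp1 (2.39 ± 0.0262) and the iron-regulatory protein gene Ireb2 (1.31 ± 0.0346) also rose. Coding lengths of Lrp2 and Lrp1 are 13980 and 13635 nt, and the part of length in their rise was not tested. With the coding length offset 8 of the 16 genes rose and 6 fell, against 37.8% and 35.5% of the genes in that fit. The ferritin genes Fth1 (-1.58 ± 0.0246) and Ftl1 (-0.88 ± 0.0275) and the lipoprotein gene Apoe (-1.15 ± 0.0315) fell, and Ftl1 stood at 0.092 with the exonic length offset. All fold changes of these lists come from the same edgeR fit, with the calls adjusted over all genes tested, and whether reads of the ferritin genes were divided with pseudogene copies was not tested.

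**Figure D5:**
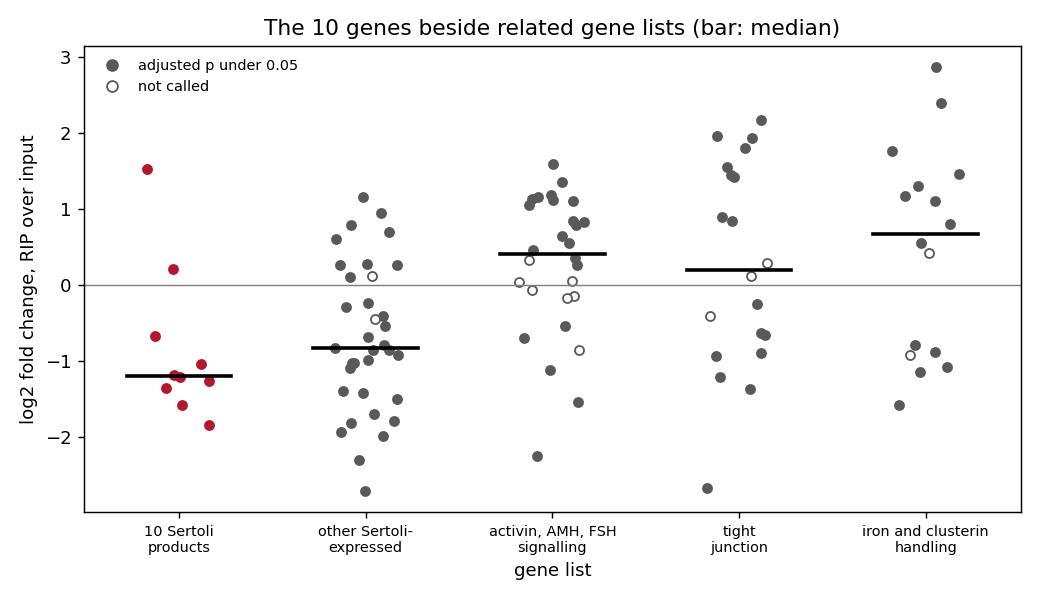
Log2 fold change (RIP over input) of each tested gene in the group of 10 Sertoli cell products and in 4 related lists, 1 point per gene, filled where the adjusted p was under 0.05, with the median as a bar. The medians were -1.20 and -0.84 in the Sertoli cell lists and 0.41, 0.20 and 0.68 in the signalling, tight junction and iron lists.

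The libraries held 38458014 and 37927689 counts in RIP and 21913977 and 21416567 in input. Ddx20 itself, the gene of the precipitated protein, rose by 0.96 ± 0.0552. The 8 Sertoli markers checked, which are also among the 38 other Sertoli genes above, were all detected. Their levels summed to 1775 and 1780 CPM in RIP and 2487 and 2495 CPM in input. Ctsl (mean of 708.5 CPM in RIP and 870.6 in input) and Krt18 (413.9 and 340.4) held much of these sums. Of the 8 markers 3 rose (37.5%, against 38.7% of all genes) and 4 fell (50.0%, against 38.6%). Other testis cells were present too, with 7 of 8 Leydig cell markers tested (158 to 160 CPM in RIP, 359 to 369 in input), 10 of 10 germ cell markers (469 to 472 in RIP, 917.5 to 926 in input) and 8 of 8 myoid and stromal markers (596 to 604 in RIP, 847 to 865 in input). Macrophage markers summed to 47.4 to 48.7 CPM in RIP and 146 to 151 in input, and red blood cell markers to 76.2 to 76.8 in RIP and 268.5 to 272 in input. Of these genes 7 of 7 Leydig cell, 7 of 10 germ cell and 4 of 8 myoid and stromal markers fell. So did 6 of 6 macrophage and 5 of 5 red blood cell markers. Among germ cell markers 2 rose (Zbtb16 at 0.38 and Sall4 at 0.39), and among myoid and stromal markers 1 rose (Pdgfra at 0.35). Over all genes tested 38.6% were called lower and 38.7% higher. Median coding lengths were 1119 nt (Leydig cell), 1118 nt (germ cell), 1096 nt (myoid and stromal), 868 nt (macrophage) and 441 nt (red blood cell). The part of length in these falls was not tested. Epididymal duct markers summed to 3.90 to 4.38 CPM in RIP and 7.33 to 8.55 in input, and 5 of 10 (Lcn5, Adam7, Crisp1, Rnase9 and Rnase10) had 0 counts in all 4 libraries. The part of other cell types in the levels of the 10 genes was not tested.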

How the data were processed

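The authors deposited raw read counts, 1 column for each library and 1 row for each gene. GRCm38 was the build, and the tools were featureCounts, SAMtools, STAR 2.7.2b, Trimmomatic 0.36 and cutadapt 4.1, per the submitters' processing notes. Settings, strandedness and annotation release are not given in the sources used, and per the labels' protocols the NEBNext Ultra RNA kit was used with 150-nt read pairs. Of nonzero counts, 65.4% to 67.4% per library were even, as happens if each mate of a read pair adds a count. The depth behind each value may therefore be overstated. Symbols, lengths and coordinates came from GENCODE M21, which names 52081 (94.1%) of the identifiers. The 10 genes carry other version numbers there than in the table, so the counted models can differ.

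Genes were kept by filterByExpr, scaled by TMM and tested with edgeR 4.0.16 (robust quasi-likelihood) in R 4.3.3, RIP against input, with Benjamini-Hochberg adjustment over 17422 genes and a threshold of 0.05. Each SE is the log2 fold change over the square root of the F statistic. The common biological coefficient of variation was 0.032, and replicates differed slightly more than counting noise (1.15 times in RIP and 1.18 times in input, the median chi-square of halved counts). Halving assumes that each mate of a read pair was counted. The fit was tested on simulated data in which few genes changed, with equal numbers up and down and no trend with length. In these libraries 77.3% of genes were called, so that test does not check the scaling or the length trend. Length offsets came from a loess (span 0.3) of log2 fold change on log2 length, with the coding length of the best APPRIS transcript. Alternatives were other scalings and filters, DESeq2 1.42.0, limma-voom (limma 3.58.1), halved counts, the replicate number as a block and leaving out each library. Genes named from each list were the 3 called genes with the highest mean CPM per direction, besides Ddx20 and receptors or binding partners of the ligands, and 1 tight junction gene that the rule names is not reported here. The genes and lists were chosen with earlier results of these data known.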

Additional observations from a re-analysis of the deposited data

How the results depend on the processing

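Of the 10 genes, 7 (Amh, Inha, Inhba, Fshr, Clu, Cldn11 and Trf) kept their direction and their call under each of the 15 alternatives run. Inhbb reversed to -0.14 (total counts) and -0.13 (upper-quartile scaling), which left 1 member higher under each and 9 lower. Defb19 reversed to 0.52 with the exonic length offset and stood at 0.054, not called, with the coding length offset, and Rhox5 was no longer called with the exonic length offset (-0.14). The count of genes at least 2-fold lower, compared over these settings after seeing the data, was 2 with the exonic length offset, against 7 with none, and from 5 to 8 under the other settings. The cause was not tested. The other Sertoli list had 5 genes higher under each of these scalings. The signalling list had 11 lower with each of these scalings, 9 with the exonic and 8 with the coding length offset, and from 3 to 5 when 1 library was left out. The tight junction list had 4 and 5 of 20 lower with the exonic and coding length offsets, against 29.8% and 35.5% of the genes in those fits. Among named genes, Sparc turned to -0.24 with both of those scalings, Ldha to -0.086 and -0.08, Krt18 to -0.066 and -0.06, and Fstl1 to -0.091 and -0.085 (total counts, upper quartile). With the exonic length offset Amhr2 turned to 0.1, F11r to 0.14 and Ftl1 to 0.092, and F11r to 0.069 with the coding length offset. Without each library in turn Rhox5 ran from -1.87 to -1.28 and Inhbb from 0.19 to 0.27, with every call of the 10 genes kept.

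The labels do not say whether the replicate numbers pair the libraries. Deviations of same-numbered RIP and input libraries correlated at r = 0.0053 over 9828 genes. With 2 libraries a group that, by halved counts, differ little beyond counting noise, this single correlation cannot tell paired from unpaired libraries. With the number as a replicate block, 2 of the 10 genes rose and 8 fell, as without it, and 6734 genes rose and 6655 fell over all genes. With 2 libraries a group the exact tests of ratios cannot pass a threshold, and Rhox5, at 28 to 82 counts per library, is limited by depth.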
